A study of Homo sapiens with 13 samples.

Results

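The sites described here are the FOXA1-bound regions around the genes of the FOXA family themselves, FOXA1, FOXA2 and FOXA3. All peaks with their centre in 1 of 3 windows of the genome build hg19 were taken, namely chromosome 14 from 37.6 to 38.5 Mb for FOXA1, chromosome 20 from 22.1 to 23 Mb for FOXA2 and chromosome 19 from 46.25 to 46.5 Mb for FOXA3. The windows held 56 of the 68107 listed peaks, of which 44 were among the 54855 Ishikawa peaks and 12 among the 13252 Hec1A peaks. Chromatin bound by FOXA1 was precipitated and sequenced (ChIP-seq) in Ishikawa and Hec1A, cell lines from endometrial adenocarcinomas, with no treatment or genetic change named in the labels. For Ishikawa, 6 ChIP libraries were pooled, with 343739762 tags (mapped fragment ends), and peaks were called against a pool of 2 input libraries of sheared, unprecipitated chromatin. For Hec1A, 3 ChIP libraries with 143055568 tags were pooled. The recorded Hec1A call names no input, although 2 Hec1A input libraries are labelled. Each line thus gave 1 list without replicate error, and no test between the lines was possible.

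FOXA proteins are forkhead transcription factors whose winged-helix domain can bind DNA on nucleosomes, which lets other factors reach closed chromatin. FOXA1 is best known as the factor that opens sites for the oestrogen receptor in breast cells. FOXA2 is needed for the glands of the mouse uterus and is recurrently mutated in endometrial cancer, and FOXA3 is best known from liver and gut. Genes of such regulators often carry binding sites for their own product and for related factors.

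The forkhead core recognised by FOXA proteins was searched on both strands, as TGTTTAC and in the variant forms with A as the second or G as the sixth letter (TGTTTGC, and likewise TATTTAC, and with both changes TATTTGC), in the 250 bases upstream of gene starts in RefSeq (build GRCh38.p14). A promoter entry was matched for FOXA1 and FOXA3. Both sequences are shown because they are the starts of the genes whose surroundings are described, with capitals marking a forkhead core. They are written in the direction of transcription.
FOXA1, chr14:37595250-37595499, minus strand: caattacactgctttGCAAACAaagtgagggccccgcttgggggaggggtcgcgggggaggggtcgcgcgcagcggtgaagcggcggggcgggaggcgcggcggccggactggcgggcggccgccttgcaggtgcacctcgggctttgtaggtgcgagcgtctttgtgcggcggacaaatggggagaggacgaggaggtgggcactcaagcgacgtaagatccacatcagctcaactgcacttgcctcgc
FOXA3, chr19:45864076-45864325, plus strand: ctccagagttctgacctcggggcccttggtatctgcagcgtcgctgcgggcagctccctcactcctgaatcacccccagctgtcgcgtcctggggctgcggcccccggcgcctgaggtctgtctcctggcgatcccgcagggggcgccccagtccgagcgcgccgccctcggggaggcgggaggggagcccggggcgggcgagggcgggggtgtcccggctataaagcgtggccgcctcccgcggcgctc
The FOXA1 sequence held 1 core, TGTTTGC on the reverse strand, from 235 to 229 bases upstream of the gene start. The FOXA3 sequence held none of the 4 cores. Of 35116 promoters in the table, 10.6% held at least 1 of the 4 and 3.23% held TGTTTGC, so a single core in 250 bases is not rare. The peaks are placed in hg19 and these sequences in another build, so no peak was placed on a promoter, exon or intron. In the gene order of the same RefSeq release, FOXA1 lies between the protein-coding genes MIPOL1 and TTC6, and FOXA3 between SYMPK and IRF2BP1. FOXA2 has the long non-coding RNA genes LINC00261 and LNCNEF as its direct neighbours.

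The first comparison was of the number of bound sites at each gene. Around its own gene FOXA1 had 36 peaks in Ishikawa and 1 in Hec1A. The FOXA2 window, of the same 0.9 Mb width, held 4 Ishikawa peaks and 6 Hec1A peaks. In the narrower FOXA3 window of 0.25 Mb, 4 Ishikawa peaks and 5 Hec1A peaks were listed. Per Mb these numbers were 40.0 Ishikawa and 1.11 Hec1A peaks at FOXA1, 4.44 and 6.67 at FOXA2, and 16 and 20.0 at FOXA3. The whole Ishikawa list was 4.14 times as long as the Hec1A list, so the FOXA1 window lay on the Ishikawa side of that ratio and the other windows on the Hec1A side. Summed over peaks, the signal (tags per 10000000 tags of the pool) was 798.2 in Ishikawa and 9.72 in Hec1A at FOXA1, 40.9 and 28.5 at FOXA2, and 79.8 and 40.9 at FOXA3. Over the whole lists the summed signal was 8.64 times as high in Ishikawa as in Hec1A. In the windows it was 82.1 times as high at FOXA1, 1.43 times at FOXA2 and 1.95 times at FOXA3. All these sums depend on how many peaks each call listed.

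**Figure D1:**
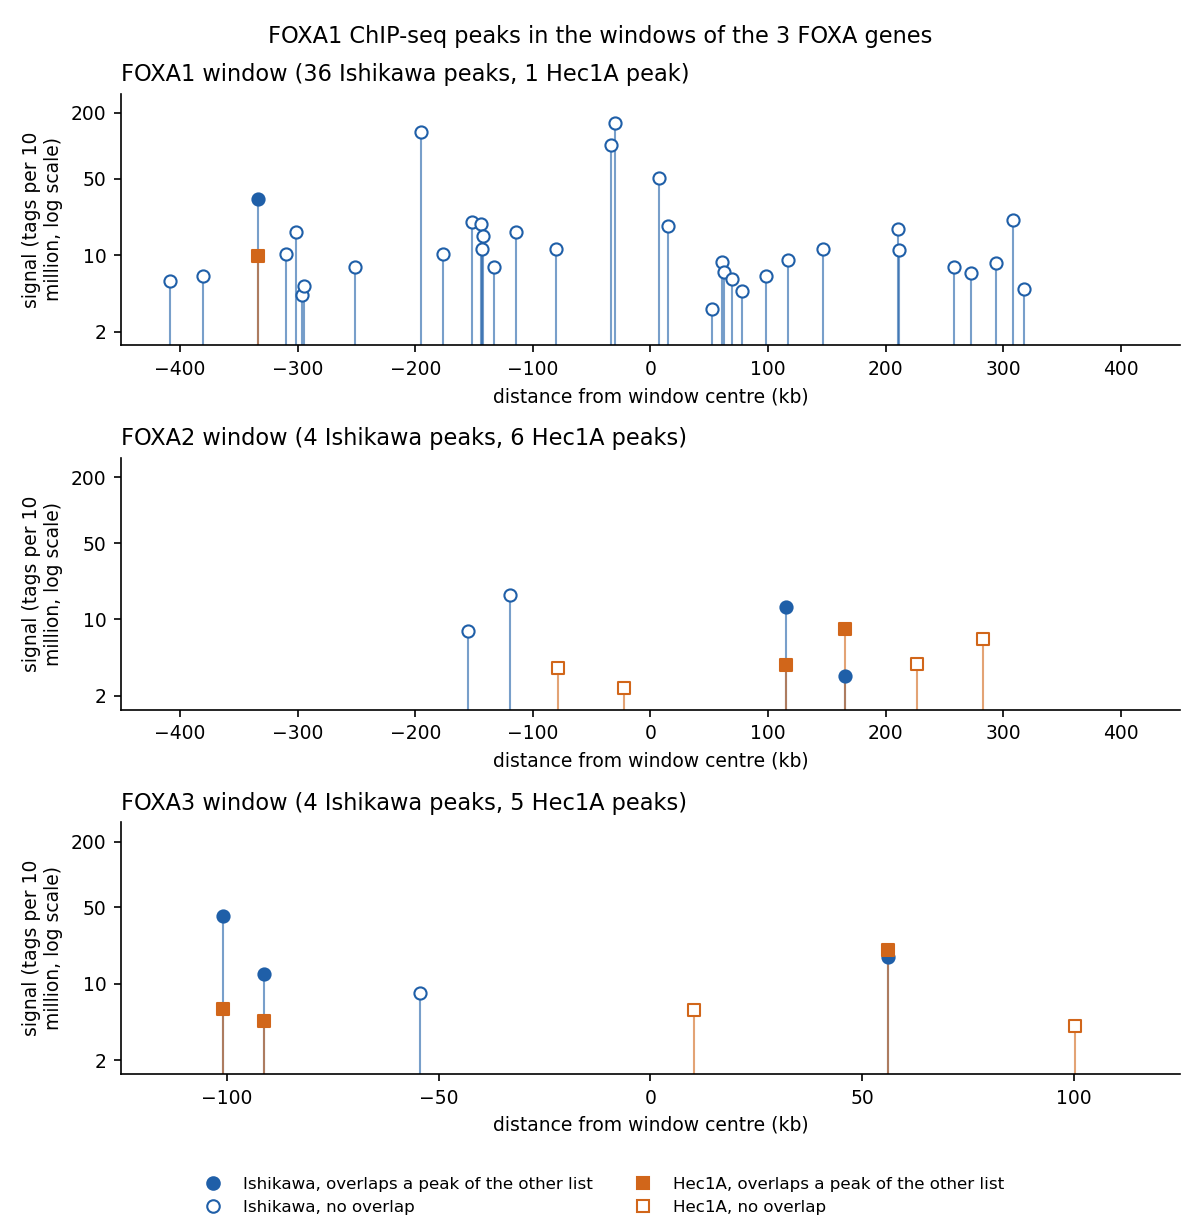
Signal of each listed peak (tags per 10000000, log scale) against its distance from the centre of the FOXA1, FOXA2 and FOXA3 windows in kb, with Ishikawa as circles and Hec1A as squares; filled symbols overlap a peak of the other list. The FOXA1 window holds 36 Ishikawa peaks and 1 Hec1A peak, and the other windows hold 4 Ishikawa peaks each with 6 and 5 Hec1A peaks.

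The lists passed unlike filters, which limits this comparison. A peak needed 88 tags in Ishikawa, or 2.56 per 10000000, and 32 tags in Hec1A, or 2.24 per 10000000. The tag thresholds per peak were thus close once scaled to depth. Peaks were 353 bp wide in Ishikawa and 254 bp in Hec1A, so per base the Hec1A threshold was the higher one. Ishikawa peaks also had to exceed the input by a fold of 4, and both lists required a fold of 4 over the surrounding 10000 bp, called the local fold from here on. The fold over input is called the input fold. A site missing from the Hec1A list had too few tags or was removed by the local filter or by the filter on clonality (tags stacked on few positions), and its tag number is not known. In Hec1A the local filter removed 41790 putative peaks and the clonality filter 25004. In Ishikawa these filters removed 38449 and 12587, and the input filter 246198. Putative peaks numbered 80046 in Hec1A and 352089 in Ishikawa. Of the peaks either listed or removed as clonal, the clonality filter took 65.4% in Hec1A and 18.7% in Ishikawa. How many of those removed lay in the windows is not known.

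The windows were set beside all tiles of the same width laid end to end over the autosomes and chromosome X. At 0.9 Mb the median tile held 17 Ishikawa peaks and 3 Hec1A peaks. At least 1 Hec1A peak was found in 84.3% of tiles. At least 36 Ishikawa peaks, as at FOXA1, were found in 65 of 3380 tiles (1.92%). Those 65 tiles held between 0 and 23 Hec1A peaks with a median of 8, and in 3 of them the Hec1A number was 1 or 0. Peak density in Ishikawa was therefore high at FOXA1, and few tiles as dense had so few Hec1A peaks. The FOXA2 window had fewer Ishikawa peaks than the median tile, and 87.9% of tiles held at least 4. Its 6 Hec1A peaks were reached in 27.0% of tiles. The combination of at most 4 Ishikawa and at least 6 Hec1A peaks occurred in 5 tiles (0.148%). Hec1A had more peaks than Ishikawa in 83 of the 3380 tiles (2.46%). For FOXA3, 58.1% of 12144 tiles of 0.25 Mb held at least 4 Ishikawa peaks and 3.13% held at least 5 Hec1A peaks. These shares describe the 2 lists, since tiles differ in gene content and in how well reads map.

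**Figure D2:**
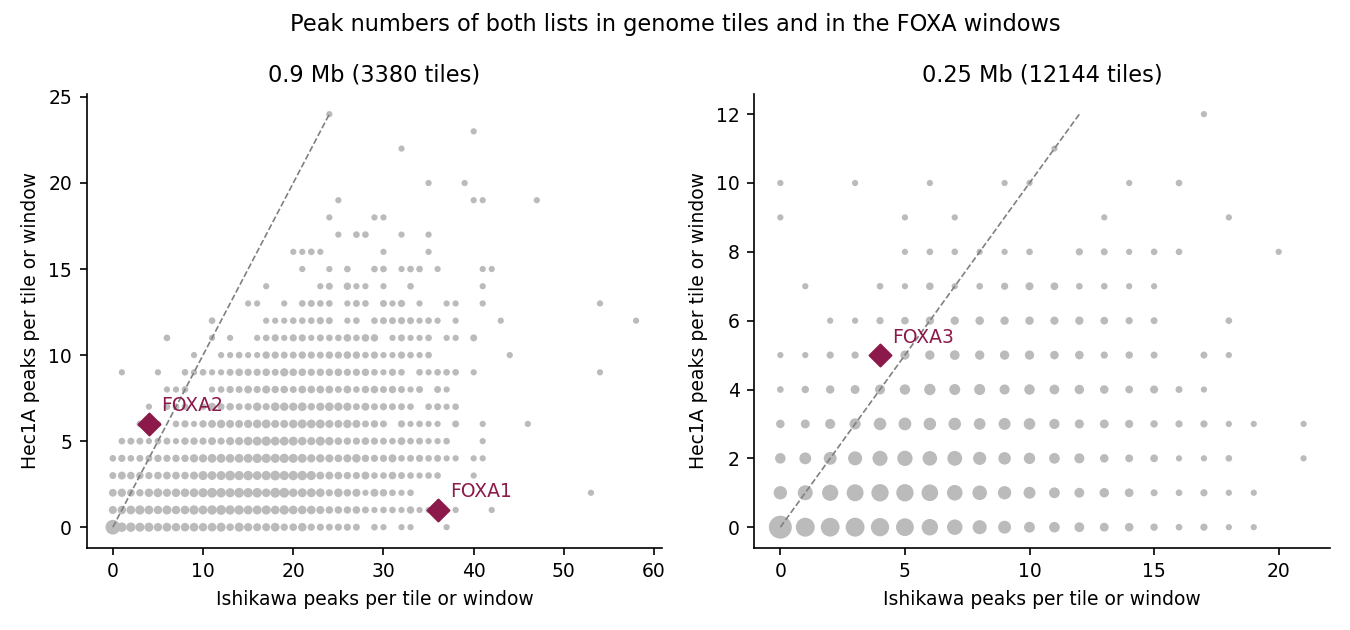
Number of Hec1A peaks against number of Ishikawa peaks in genome tiles of 0.9 Mb (left, 3380 tiles) and 0.25 Mb (right, 12144 tiles); larger grey dots stand for more tiles, diamonds are the FOXA windows and the dashed line marks equal numbers. The FOXA1 window lies at 36 Ishikawa peaks and 1 Hec1A peak, far below the line, and the FOXA2 and FOXA3 windows lie above it.

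The FOXA1 window held 3 very strong Ishikawa sites that were not in the Hec1A list. The strongest, at chr14:38019718-38020070, had a signal of 159.9 (95% exact Poisson interval 155.7 to 164.2), which placed it at rank 511 of the Ishikawa list by score. Its local fold was 21.6. The pooled input had 1 tag there, and the input fold of 619 had a counting interval of 111 to 24449.2, so its size is loosely set. Intervals of signals and folds cover the counting of tags alone, and reads without molecular identifiers are not independent molecules.

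A site at chr14:37854504-37854856 had a signal of 134.2 (130.4 to 138.1), rank 677, and stood alone, with a local fold of 77.7, the highest in the 3 windows. Its input fold was 64.9 (32.9 to 150.5). The third site, at chr14:38016074-38016426, had a signal of 102 (98.6 to 105.4), rank 1001, and lay 3.64 kb from the strongest one. Its local fold was 10.4 and its input fold 43.9 (23.1 to 96.0). These 3 sites carried 49.6% of the Ishikawa signal in the window. Of the 1001 Ishikawa peaks with a score at least as high as theirs, 47.4% overlapped a Hec1A peak, and here 0 of 3 did. The nearest Hec1A peak was 304.0, 138.7 and 300.3 kb away.

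The next site by score lay closest to the middle of the window, at chr14:38057310-38057662, with a signal of 50.5 (48.2 to 52.9), a local fold of 13.0 and an input fold of 32.6 (14.9 to 89.0). A weaker peak 7.20 kb further on, at chr14:38064512-38064864, had a signal of 18.6 (17.2 to 20.1) and an input fold of 12.0 (5.48 to 32.8). The fifth Ishikawa site without a Hec1A partner was at chr14:38358478-38358830, with a signal of 20.9 (19.4 to 22.5). Its input fold of 27.1 (9.24 to 131.7) rested on 3 input tags. The peak of lowest score, at chr14:38101925-38102277, had a signal of 3.20 (2.63 to 3.86) and 2 input tags, with an input fold of 6.25 (1.69 to 52.3). Apart from the 3 strongest sites, the 33 other Ishikawa peaks of the window ranged from 3.20 to 50.5 with a median of 8.99.

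The single Hec1A peak of the FOXA1 window lay at chr14:37715808-37716062, within the Ishikawa peak at chr14:37715782-37716134. Its signal was 32.5 (30.6 to 34.5) in Ishikawa and 9.72 (8.17 to 11.5) in Hec1A, with local folds of 17.3 and 13.0. The Hec1A signal corresponds to 139.1 tags but its score was only 58, and its clonal fold was 1.49, against a median of 0.720 in the Hec1A list. By signal it stood at the 83.4th percentile of the Hec1A list and by score at the 50.5th. The clonal fold is the ratio of the positions expected for a peak's tags to those they occupied. With peaks restricted to a clonal fold of 1 or less, 28 Ishikawa and 0 Hec1A peaks were left in the window. The other Ishikawa peaks had no Hec1A partner, so 1 of 36 overlapped (2.78%, 95% exact binomial interval 0.0703% to 14.5%), beside 12.8% of the whole Ishikawa list. With 1 Hec1A peak in the window no more than 1 could overlap, so this share restates the peak numbers. The binomial intervals here and at FOXA2 and FOXA3 take peaks as independent, which neighbouring peaks of 1 pooled list need not be.

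The absence of Hec1A peaks extended beyond the window. Between the Hec1A peak at FOXA1 and the next one on chromosome 14, which began at 39186544, lay 1471 kb with 46 Ishikawa peaks, of which 33 were in the window. As many Ishikawa peaks without a partner lay in 20 of 13227 stretches between neighbouring Hec1A peaks (0.151%). The nearest Hec1A peak lay more than 100 kb away for 28 of the 36 Ishikawa peaks, against 36.9% of the Ishikawa list. It was the same Hec1A peak for all 36, so this share follows from the single Hec1A peak of the window. The local background of the one Hec1A peak, taken as signal over local fold, was 0.745 tags per 10000000, near the Hec1A median of 0.810. Hec1A background elsewhere in the window cannot be read from a peak list.

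Many Ishikawa peaks at FOXA1 lay near one another. With peaks joined when their centres lay within 12500 bp, 22 of 36 had a neighbour, against 42.1% of the list, and 14 of 36 belonged to runs of 3 or more, against 16.6%. The window held 36 Ishikawa peaks where the median tile of its width held 17, and denser peaks have nearer neighbours. These shares therefore restate the peak number at least in part, and clustering beyond that density was not tested. One run of 5 peaks spanned 18.9 kb at chr14:37898220-37917484, with signals from 7.77 to 19.9. Another of 5 spanned 25.4 kb at chr14:38101925-38127697, with weaker signals from 3.20 to 8.61. The run of 4 at chr14:37739776-37755926 had signals from 4.28 to 16.1. The strongest run was the pair of 102 and 159.9 described above. Its peaks had local backgrounds of 9.80 and 7.41 tags per 10000000, against a median of 1.34 in the Ishikawa list, and 0.352% of that list reached 7.41. Each peak of the pair lies within 10000 bp of the other, and the part of the neighbouring peak in these local levels was not tested. In Hec1A, the peaks at the left of the FOXA3 window were the only ones joined in this way (2 of 12, against 19.0% of the list). By the local fold the lone Ishikawa site of signal 134.2 ranked above the pair, and by signal it stood between its members.

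Most FOXA1-window peaks in Ishikawa were of ordinary strength. The median signal was 10.2, beside 9.69 in the list, and 19 of 36 lay above that list median. By score, 16 of 36 lay above the list median. A local fold of at least 8 was reached by 13 of 36 peaks, against 40.1% of the list. The median number of input tags at these peaks was 5 both in the window and in the list. All listed Ishikawa peaks had passed the input filter, so input elsewhere in the window cannot be read from them. The clonal fold was above 1 in 8 of 36 peaks, against 25.1%. By these medians and shares the Ishikawa peaks of the window were close to the list.

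**Figure D3:**
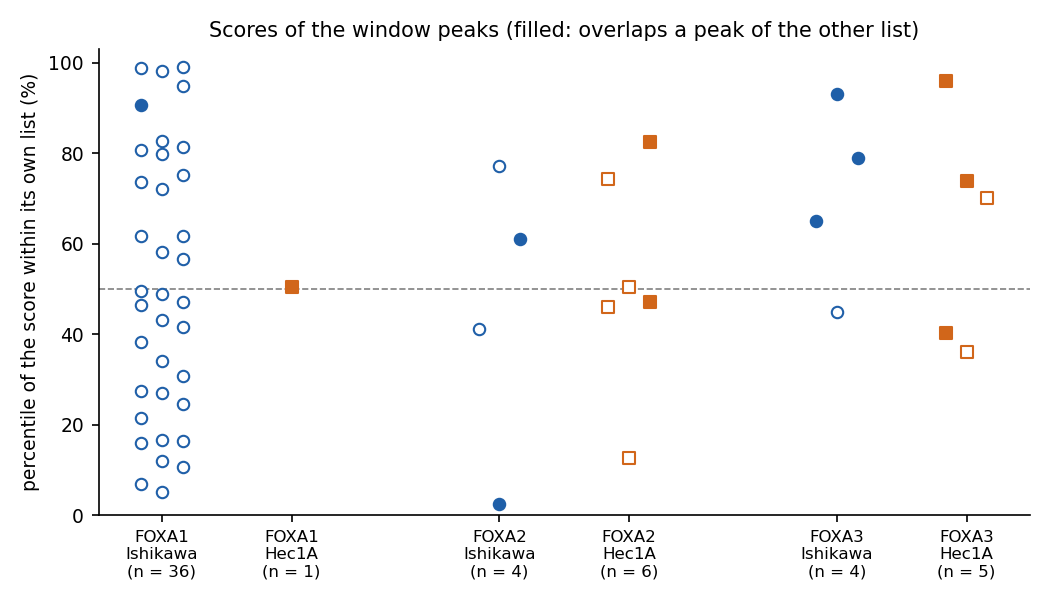
Percentile of each window peak's score within its own list (%), by gene window and line, with Ishikawa as circles and Hec1A as squares; filled symbols overlap a peak of the other list, the dashed line marks the list median and sideways offsets carry no meaning. Ishikawa peaks at FOXA1 run from the 5.19th to the 99.1th percentile, and the Hec1A peaks at FOXA3 from the 36.1th to the 96.0th.

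At FOXA2 the lines shared 2 sites. Of 4 Ishikawa peaks, 2 overlapped a Hec1A peak (95% exact binomial interval 6.76% to 93.2%; 12.8% in the list), which was 2 of 6 in Hec1A (4.33% to 77.7%; 52.9% in the list). Ishikawa signals were 7.80, 16.9, 13.1 and 3.05 along the chromosome. Hec1A signals were 3.57, 2.38, 3.84, 8.18, 3.91 and 6.64. None of the 10 peaks came near the 3 strong Ishikawa sites at FOXA1.

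The Ishikawa peaks without a partner lay to the left of the window centre, at chr20:22430248-22430600 with a signal of 16.9 (15.6 to 18.3) and an input fold of 8.18 (4.12 to 19.0), and at chr20:22394983-22395335 with 7.80 (6.89 to 8.79) and an input fold of 7.57 (2.92 to 28.0). From there no Ishikawa peak was listed for 234.4 kb. This stretch held 2 Hec1A peaks without a partner, at chr20:22471443-22471697 with a signal of 3.57 (2.65 to 4.69) and at chr20:22527125-22527379 with 2.38 (1.65 to 3.32). The second of these was close to the Hec1A tag threshold of 2.24 and had the lowest score of the Hec1A peaks in all windows, at the 12.8th percentile. It was also the peak nearest to the window centre, 22.7 kb away. The other Hec1A peaks without a partner were at chr20:22832380-22832634 with 6.64 (5.37 to 8.12) and at chr20:22776564-22776818 with 3.91 (2.96 to 5.08). All 6 Hec1A peaks had a clonal fold of 0.9 or less, unlike the Hec1A peak at FOXA1. Low values are usual in the Hec1A list, with a median of 0.720 and 28.8% of peaks above 1.

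The overlapping sites at FOXA2 differed from each other. At chr20:22664647-22664999 the signal was 13.1 (11.9 to 14.4) in Ishikawa and 3.84 (2.90 to 5.004) in Hec1A, a ratio of 3.41 (2.58 to 4.51). At chr20:22715634-22715986 it was 3.05 (2.50 to 3.70) in Ishikawa and 8.18 (6.76 to 9.80) in Hec1A, a ratio of 0.373 (0.286 to 0.485). This second site was the Ishikawa member of lowest score in any window, at the 2.46th percentile of its list, and stood at the 82.4th percentile of the Hec1A list. Local folds were 8.83 in Ishikawa and 20.1 in Hec1A, so the order of the lines did not depend on the local level. The tags were tightly centred in both, with focus ratios (the share of tags placed as around a peak centre) of 0.946 and 0.961. The Ishikawa input fold of 11.8 rested on 1 input tag, with an interval of 2.08 to 471.3.

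At FOXA3 most Ishikawa sites were also in the Hec1A list. The overlap was 3 of 4 Ishikawa peaks (19.4% to 99.4%; 12.8% in the list) and 3 of 5 Hec1A peaks (14.7% to 94.7%; 52.9% in the list). The first shared site, at chr19:46273816-46274168, had a signal of 41.6 (39.5 to 43.8) in Ishikawa and 5.87 (4.68 to 7.27) in Hec1A. The second, 9.77 kb on at chr19:46283585-46283937, had 12.2 (11.1 to 13.4) in Ishikawa and 4.54 (3.51 to 5.79) in Hec1A. At the third, chr19:46430950-46431302, the signal was 17.7 (16.3 to 19.2) in Ishikawa and 20.6 (18.3 to 23.1) in Hec1A.

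The third site was the strongest Hec1A peak of all 3 windows. It held rank 529 of the Hec1A list and rank 11568 of the Ishikawa list. Its local fold was 13.7 in Ishikawa and 21.0 in Hec1A, and its focus ratios were 0.925 and 0.965. The 1 Ishikawa peak without a partner, at chr19:46320423-46320775, had the lowest score of the 4, with a signal of 8.32 (7.38 to 9.34) and an input fold of 4.60 (2.20 to 11.5), close to the required 4. Hec1A alone had peaks at chr19:46385247-46385501, 10.4 kb from the window centre, with a signal of 5.80 (4.62 to 7.19), and at chr19:46475164-46475418, with 4.12 (3.14 to 5.32) and the lowest score of the 5. Their local folds were 4.26 and 4.89, near the required 4. The Hec1A peaks at the first and second shared sites were as near to it, at 4.88 and 4.63. All 4 Ishikawa peaks reached a local fold of 8 (40.1% in the list), as did 1 of 5 Hec1A peaks (26.0% in the list).

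The second question was how strongly shared sites were bound in each line. Over all 7012 overlapping pairs the signal was a median of 3.53 times as high in Ishikawa as in Hec1A, with a middle 50% from 2.10 to 5.83. The 6 pairs in the windows had a median ratio of 3.02. Ratios were 3.34 (2.80 to 3.99) at FOXA1, 3.41 and 0.373 at FOXA2, and 7.09 (5.69 to 8.83), 2.69 (2.07 to 3.49) and 0.859 (0.748 to 0.987) at FOXA3. A ratio below 1 was found in 2 of the 6 pairs, beside 6.43% of all pairs. The lower FOXA2 ratio was reached by 0.913% of all pairs, and a ratio as high as the 7.09 at FOXA3 by 17.3%. Ishikawa peaks were 353 bp wide and Hec1A peaks 254 bp, so a ratio per base is lower by the same factor in every pair and leaves their order as it was. Measured as a ratio of local folds, the same pairs were below 1, at 0.439 and 0.654, but so were 16.9% of all pairs, with a median of 1.90. By that measure the other ratios were 1.33 at FOXA1, 2.56 at FOXA2, and 3.71 and 1.92 at FOXA3. Divided by the median ratio of all pairs, the ratios at FOXA1 (0.948), at the first FOXA2 pair (0.967) and at the second FOXA3 pair (0.762) were below 1 as well, and only the first FOXA3 pair, at 2.01, stayed above 1. Centres of the 6 pairs lay 19 to 53 bp apart, and in 5 pairs the Hec1A interval lay wholly inside the Ishikawa one.

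**Figure D4:**
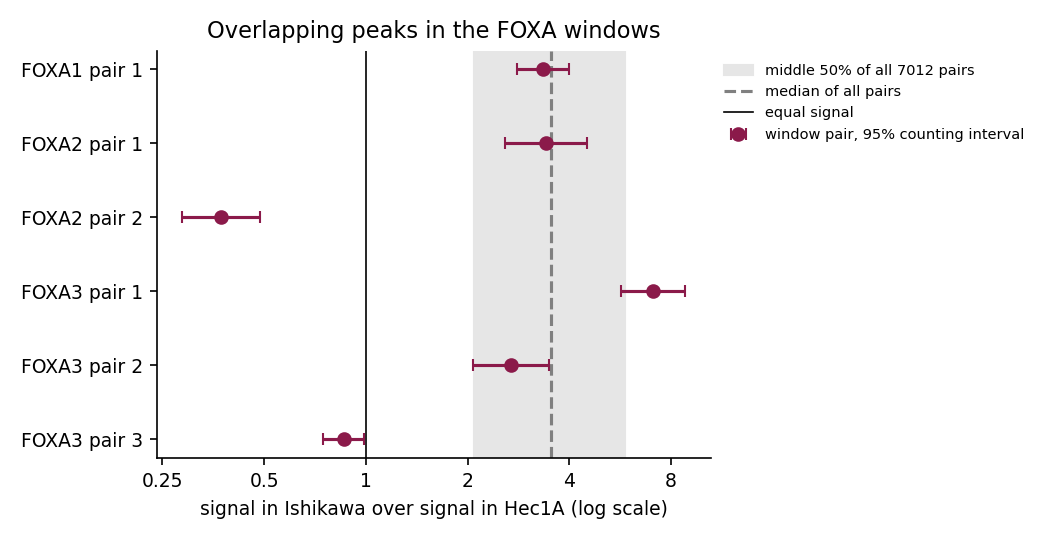
Ratio of the Ishikawa signal to the Hec1A signal at the 6 overlapping pairs of the FOXA windows (log scale, points with 95% counting intervals of tags), with the median (dashed) and middle 50% (grey) of all 7012 pairs and a line at equal signal. The second FOXA2 pair at 0.373 and the third FOXA3 pair at 0.859 lie below 1, and the first FOXA3 pair at 7.09 lies above the grey band.

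The focus of the Hec1A members went with sharing only in part. Among the 12 Hec1A peaks, focus ratios ran from 0.675 to 0.965 around a list median of 0.823. The 3 highest, 0.952 at FOXA1, 0.961 at FOXA2 and 0.965 at FOXA3, belonged to shared sites. The other shared site at FOXA2 had 0.823, and the shared pair at the left of the FOXA3 window had 0.696 and 0.716. Peaks without a partner reached 0.890 at FOXA2 and 0.824 at FOXA3. The clonal fold was above 1 in the FOXA1 peak and in 2 of 5 FOXA3 peaks, against 28.8% of the Hec1A list. Both FOXA3 values were just over 1, at 1.01 in a shared peak and 1.02 in one without a partner.

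Windows were drawn by position, and some neighbours fell just outside. The Ishikawa peak nearest outside the FOXA1 window lay 16.02 kb to the left with a signal of 14.5, and the nearest inside was 41.3 kb from that edge with 5.76. To the right, an Ishikawa peak of 27.5 lay 94.8 kb outside and one of 4.92 lay 132.4 kb inside. The nearest Hec1A peaks outside the FOXA1 window lay 148.5 kb to the left, with a signal of 2.31, and 686.7 kb to the right, with 3.01. At FOXA2 the right edge had an Ishikawa peak of 3.26 and a Hec1A peak of 4.96 at 12.53 and 30.5 kb outside, and to the left the nearest peaks of both lists, of 10.6 and 6.92, were a shared site 554.8 kb away. Outside the left edge of the FOXA3 window, at 29.3 kb, lay a shared site with signals of 72.0 in Ishikawa and 14.1 in Hec1A, higher in Ishikawa than any peak inside. Outside its right edge lay an Ishikawa peak of 5.09 at 3.61 kb and a Hec1A peak of 5.10 at 20.0 kb.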

How the data were processed

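The submitters' processing notes name Bowtie 1.1.2, HOMER 4.7.2, SAMtools 1.3.1 and the build hg19. HOMER findPeaks was run by the authors in factor mode on the pooled tags of each line, per the file headers, at a false discovery rate of 0.001. Libraries were made with TruSeq or ThruPLEX kits, which are mixed within each pool (2 and 4 ChIP libraries in Ishikawa, 1 and 2 in Hec1A), per the labels. As deposited by the authors, signal gives the tags of a peak per 10000000 tags, the focus ratio is a fraction, the findPeaks score counts tags, and the local, input and clonal folds are linear ratios. The 4 other deposited measurement columns, among them p-values, were not used.

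Partners were peaks of the other list sharing at least 1 bp. Tag numbers were computed from signal and pool size for the 95% counting intervals of signals (exact Poisson), folds over input (exact binomial, given both tag numbers) and signal ratios (log-normal). Python 3.11.15, pandas 2.3.3 and SciPy 1.17.1 were used. The counting of overlaps and window members was checked on simulated lists with known answers. Every peak of a window was counted. Named with values were all pairs, the 5 highest-scoring Ishikawa and Hec1A peaks without a partner and the lowest-scoring peak of each list and window. Peaks just outside the windows and the FOXA1-window peak of signal 18.6 were added after their values were seen. The windows, lists and measures were chosen with earlier results of these data known, and the tiles, stretches and motifs were chosen after the peaks or sequences were seen. Alternatives on clonality, folds, list length, window width and overlap are given below.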

Additional observations from a re-analysis of the deposited data

How the results depend on the processing

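With a clonal fold of 1 or less, Hec1A peaks fell to 0 at FOXA1 and 3 at FOXA3, and partners to 0 at FOXA1 and 1 at FOXA2. With a local fold of 8 or more, 13 Ishikawa peaks were left at FOXA1, 2 Hec1A peaks at FOXA2 and 1 at FOXA3, with 1 partner each at FOXA2 and FOXA3. An input fold of 8 or more left 18 Ishikawa peaks at FOXA1 and 1 at FOXA3. With the Ishikawa list reduced to the 13252 peaks of highest score, 9, 1 and 2 Ishikawa peaks were left at FOXA1, FOXA2 and FOXA3, and 0 partners at FOXA2. With windows cut to 0.5 of their width, FOXA1 held 23 Ishikawa and 0 Hec1A peaks and FOXA3 held 2 of each. These lower numbers follow from fewer peaks passing a filter or, in the last setting, from a narrower window. The input fold and list length settings filtered the Ishikawa list alone and left Hec1A as it was. In each of these settings the FOXA1 window kept more Ishikawa than Hec1A peaks. The order of the lines turned with the local fold (3 Ishikawa and 2 Hec1A peaks at FOXA2, 4 and 1 at FOXA3) and, at FOXA3, with the clonal fold (4 and 3), and both windows tied at 0.5 of the width (4 and 4, 2 and 2). Of 39 alternatives to counts, 20 stayed within 1.5 times. Of 18 alternatives to single pair ratios, 1 stayed within the counting interval. The ratios per base and relative to all pairs rescale every pair by a fixed factor, so leaving the interval there depends on its width alone. The median ratio of 3.02 was 2.17 per base, 0.855 relative to all pairs and 1.63 by local folds. With 1 pooled list per line, no library could be left out. No paired analysis was possible because each list rests on pooled libraries. Sites under the tag thresholds of 2.56 in Ishikawa and 2.24 in Hec1A per 10000000 could not be listed at these depths, and the Hec1A peak of 2.38 at FOXA2 lay near that limit.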
